A study of Mus musculus with 8 samples.

Results

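The STAT factors and JAK kinases were examined as 9 genes: the transcription factor genes Stat2, Stat3, Stat4, Stat5a, Stat5b and Stat6, and the kinase genes Jak1, Jak2 and Tyk2. They were taken by symbol, 9 of the 22274 genes in the deposited table. RNA was sequenced in 8 libraries of the mouse kidney line RFB, labelled as fibroblasts and TGF-β, which drives matrix production, was given to every sample. Of these, 4 came from cells given an adenovirus labelled GFP (ad-GFP) and 4 from cells given an adenovirus labelled Cre recombinase (ad-CRE). The series title and design text give Suv39h1, a histone H3 lysine 9 methyltransferase, as the targeted gene. The labels do not describe the allele that Cre would act on, the time after infection, the dose of TGF-β or the origin of the replicates. P-values therefore weigh differences against the scatter of these libraries only, and that scatter may be technical.

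JAK kinases sit on the cytoplasmic tails of cytokine receptors. When a ligand joins the receptor chains, the kinases phosphorylate the receptor and then STAT proteins, which pair, enter the nucleus and bind DNA. TYK2 and JAK1 serve the type I interferon receptor, where STAT2 acts together with the DNA-binding protein IRF9 on elements called ISREs. STAT3 is the main factor downstream of gp130 (gene Il6st), the shared receptor chain of interleukin 6 family cytokines, and has been studied in kidney fibroblasts during fibrosis. STAT4 serves interleukin 12 in T and NK cells, STAT6 serves interleukins 4 and 13, and STAT5A and STAT5B, a pair of close paralogs, serve growth hormone, prolactin and other ligands through JAK2 and its relatives.

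The upstream sequence is shown for Stat2, the member that fell, and for Stat3 and Tyk2, members that rose, because it is the place where an interferon response element would be looked for. Each is the 250 bases before an annotated RefSeq start (build GRCm38.p6), 5′ to 3′ on the strand of the gene: chr10:128270248-128270497 on the plus strand for Stat2, chr11:100939541-100939790 on the minus strand for Stat3 and chr9:21131276-21131525 on the minus strand for Tyk2. Capitals mark a match to the ISRE core GAAANNGAA on either strand.
Stat2: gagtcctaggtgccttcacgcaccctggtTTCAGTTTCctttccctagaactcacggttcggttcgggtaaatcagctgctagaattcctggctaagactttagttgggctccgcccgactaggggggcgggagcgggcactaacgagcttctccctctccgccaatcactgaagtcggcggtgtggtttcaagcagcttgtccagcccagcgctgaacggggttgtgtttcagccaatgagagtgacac
Stat3: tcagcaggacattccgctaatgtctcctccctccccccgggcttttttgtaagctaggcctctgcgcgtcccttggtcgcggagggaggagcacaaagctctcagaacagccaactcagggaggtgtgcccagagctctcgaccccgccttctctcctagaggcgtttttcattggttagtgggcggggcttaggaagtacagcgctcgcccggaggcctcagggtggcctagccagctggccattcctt
Tyk2: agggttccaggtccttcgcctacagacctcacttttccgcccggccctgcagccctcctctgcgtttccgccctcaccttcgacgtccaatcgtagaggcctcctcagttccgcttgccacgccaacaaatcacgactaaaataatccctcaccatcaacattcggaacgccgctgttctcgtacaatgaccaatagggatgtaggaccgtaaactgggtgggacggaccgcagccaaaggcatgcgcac
The Stat2 window held 1 match, on the opposite strand and starting 221 bases before the start site, and the Stat3 and Tyk2 windows held 0. For Stat2 and Tyk2 this RefSeq start lies upstream of the gene start in the GENCODE annotation (128270559 and 21131243). For both, bases checked soon after the RefSeq start were found in 0 GENCODE transcripts of the gene. The distance of the match, and whether a window holds it, therefore depend on the start chosen. The GAS core TTCNNNGAA, the general STAT element, which reads the same on both strands and can overlap the ISRE core, was in 0 of the 12 windows found for the 9 members. The only other member with an ISRE core match was Stat4, in 1 of its 2 windows, and that gene had almost no reads. Of 32851 windows of the same length, 7.13% held the ISRE core and 7.02% the GAS core. These matches describe letters and do not show that a factor binds there.

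Of the 9 genes, 8 had enough reads to be tested, and Stat4 did not. Of those 8, 5 were higher in ad-CRE (Stat3, Stat5b, Jak1, Jak2 and Tyk2), 1 was lower (Stat2) and 2 did not pass (Stat5a and Stat6). A gene was called at a Benjamini-Hochberg adjusted p under 0.05 in the edgeR quasi-likelihood test over all 13702 genes tested. In that test 73.1% of all genes were called, 36.8% higher and 36.3% lower, so a share of 75% among the members is close to the background. The groups did not overlap in CPM (counts scaled to library size) in 6 of the 8 tested members, against 66.2% of all genes tested. The 3 kinases all rose, and the direction of every called member was the same under each alternative processing tried.

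Stat2 had the largest change of the family. It was at 127, 99.5, 107 and 112 CPM with ad-GFP (replicates 1 to 4) and at 20.7, 16.2, 18.6 and 18.8 CPM with ad-CRE (same order). The groups were far apart, with the lowest ad-GFP library well above the highest ad-CRE library. The mean fell from 111 ± 11.5 to 18.6 ± 1.86 CPM (SD, n = 4 each), or by 5.97-fold. The fitted log2 fold change was −2.58, with an SE of 0.065 and an edgeR adjusted p of 5.21e-25. These levels rest on 8271 reads in ad-GFP and 1497 reads in ad-CRE. Of all genes tested, 251 (1.83%) had a log2 fold change as low or lower. Stat2 (ENSMUSG00000040033) is protein-coding and lies on GRCm38 chromosome 10, 128270559 to 128292849, plus strand, and no other annotated gene overlaps it.

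**Figure D1:**
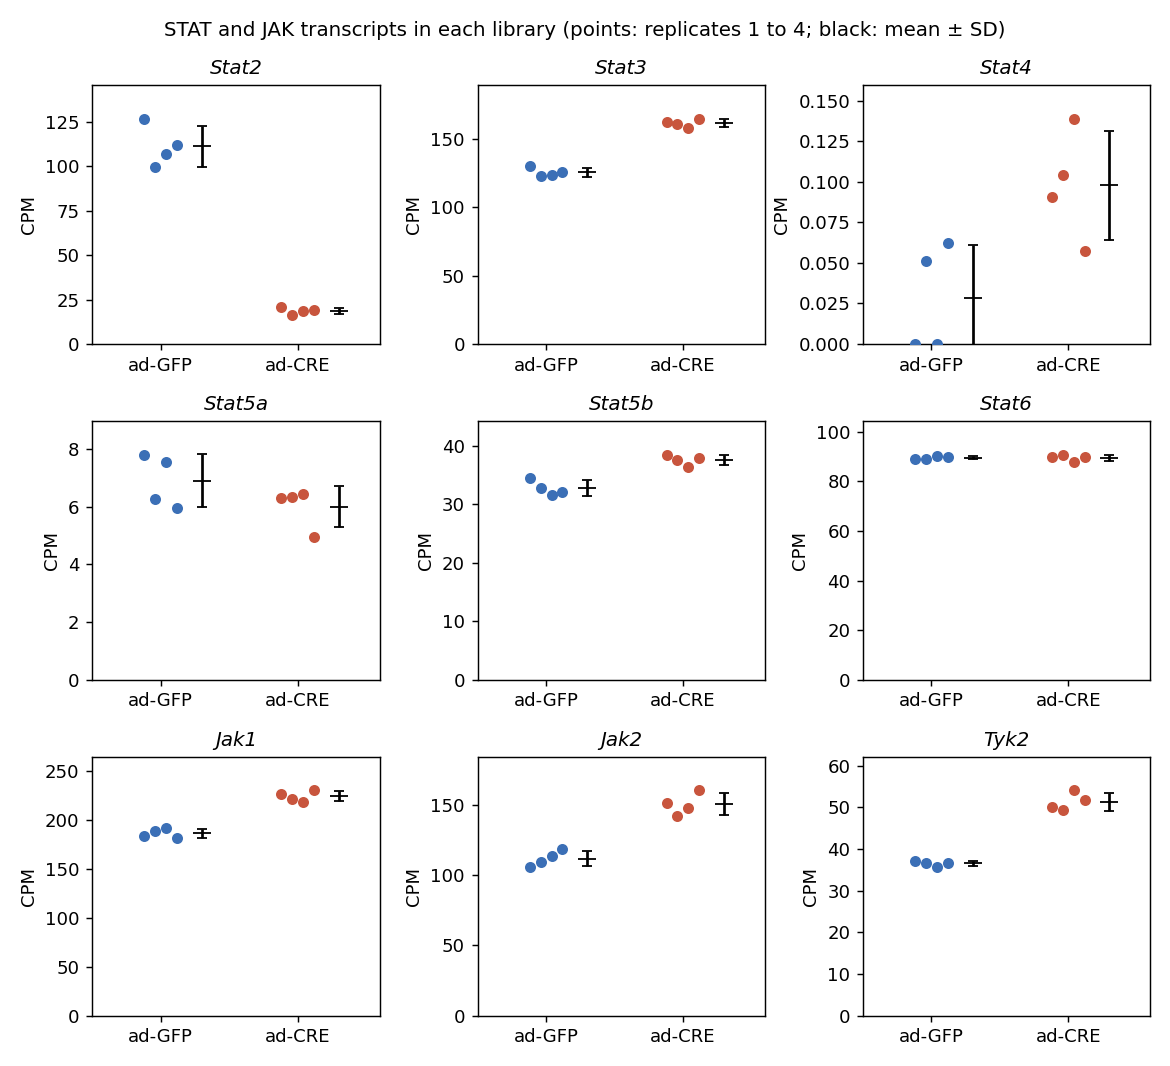
Level of each of the 9 genes in CPM (vertical axes, linear and starting at 0) in the 4 ad-GFP and 4 ad-CRE libraries. Points are libraries and black marks are the mean ± SD. Stat2 is the only panel in which the ad-CRE libraries lie below all ad-GFP libraries, in 5 panels they lie above, and Stat4 reaches at most 0.139 CPM.

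Replicate 1 of ad-GFP held the highest Stat2 level of its group. In that library 26 of 32 interferon-stimulated genes also had their highest ad-GFP value, and their summed level was 2520 CPM there against 2183, 2279 and 2188 CPM in replicates 2 to 4. The share of all genes tested that were highest in that library was not counted, so whether this is particular to interferon-stimulated genes is not known. Without ad-GFP replicate 1, the Stat2 log2 fold change was −2.51 (edgeR adjusted p = 1.09e-27). The coefficient of variation of Stat2 was 10.3% in ad-GFP and 10.02% in ad-CRE, while that of Stat6, a gene of similar abundance in ad-GFP, was 0.702% and 1.354%.

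Irf9, the DNA-binding partner of STAT2, also fell, from 71.2 to 25.4 CPM (log2 fold change −1.49, SE 0.048, edgeR adjusted p = 2.47e-22). Stat2 fell further than its partner. The ratio of Stat2 to Irf9 counts within a library, which needs no scaling between libraries, went from 1.56 ± 0.154 to 0.733 ± 0.0732 (SD, n = 4), with no overlap (exact permutation test, two-sided, p = 0.0286, adjusted p = 0.0357 over 5 ratios, the smallest raw p that 4 against 4 libraries allow being 0.0286). The ratio was chosen after the values of both genes were seen, so its test adds no support. The genes nearest to Stat2 in pattern over the 8 libraries, by the root mean square distance of centred log2 CPM, were Herc6 (distance 0.105, log2 fold change −2.58), an interferon-inducible ubiquitin ligase gene, and Gvin2 (distance 0.111, log2 fold change −2.67), a gene of the very large interferon-inducible GTPases.

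Stat3 rose. It was at 130, 123, 124 and 126 CPM with ad-GFP (replicates 1 to 4) and at 163, 161, 158 and 165 CPM with ad-CRE (same order), so that all ad-CRE libraries lay above all ad-GFP libraries. The fold change was 1.29 (log2 fold change 0.36, SE 0.030, edgeR adjusted p = 5.46e-12). Stat3 (ENSMUSG00000004040, chromosome 11, 100885098 to 100939540, minus strand) overlaps the end of Stat5a by 72 bases on the opposite strand, and no source used here gives the strand setting of the counting. Since Stat2 fell as Stat3 rose, the ratio of Stat2 to Stat3 counts went from 0.883 ± 0.0678 to 0.115 ± 0.0111 (SD, n = 4; exact permutation test, two-sided, adjusted p = 0.0357), a change of −2.94 on the log2 scale. With both genes already separated in opposite directions, the ratio could not overlap, so its test adds no support.

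The paralogs Stat5a and Stat5b lie head to head on chromosome 11, 8626 bases apart, with Stat5a next to Stat3. Stat5b (ENSMUSG00000020919, 100780731 to 100850724, minus strand) was at 34.6, 32.9, 31.5 and 32.1 CPM with ad-GFP (replicates 1 to 4) and at 38.5, 37.6, 36.4 and 37.8 CPM with ad-CRE (same order). The groups did not overlap, but they came close, and the fold change was only 1.14 (log2 fold change 0.20, SE 0.049, edgeR adjusted p = 0.000686). Stat5a (ENSMUSG00000004043, 100859351 to 100885169, plus strand) was weaker, at 7.81, 6.28, 7.55 and 5.96 CPM in ad-GFP and 6.29, 6.35, 6.43 and 4.95 CPM in ad-CRE. Its groups overlapped and it did not pass (log2 fold change −0.20, 95% interval −0.43 to 0.04, edgeR adjusted p = 0.135).

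The ratio of Stat5b to Stat5a counts did not overlap between the groups, at 4.81 ± 0.595 in ad-GFP and 6.34 ± 0.890 in ad-CRE (SD, n = 4; exact permutation test, two-sided, adjusted p = 0.0357). It too was chosen after the values were seen, so its test adds no support. The values of this pair are uncertain because the genes share sequence: of the distinct 50-base windows in the annotated transcripts, 8.52% of those of Stat5a and 10.98% of those of Stat5b occur in another member's transcripts. With the counts of the pair summed as 1 gene, the sum rose slightly (log2 fold change 0.13, edgeR adjusted p = 0.0116). The deposited FPKM of Stat5a (fragments scaled to gene length and library size) also did not follow its counts closely. The gene length implied by count and FPKM ran from 1.88 to 3.11 kb over the 8 libraries, 1.66-fold, whereas in the other 7 tested members (Stat4, with its few reads, left out) the largest such ratio was 1.04.

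Stat6, the interleukin 4 and 13 factor, showed no detectable difference. It was at 88.9, 89.0, 90.2 and 89.9 CPM with ad-GFP (replicates 1 to 4) and at 90.0, 90.8, 88.0 and 89.8 CPM with ad-CRE (same order), and the groups overlapped throughout. The log2 fold change was 0.0020 (95% interval −0.06 to 0.07, edgeR adjusted p = 0.958), and its sign turned with the scaling of libraries. Stat6 (ENSMUSG00000002147, chromosome 10, 127642986 to 127660957, plus strand) lies 609601 bases before Stat2, and its span overlaps Nab2 on the opposite strand. Only 0.321% of all genes tested had a smaller absolute log2 fold change.

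Stat4, the interleukin 12 factor, was barely detected. It had 0, 1, 0 and 1 reads with ad-GFP (replicates 1 to 4) and 2, 2, 3 and 1 reads with ad-CRE, at or under a floor of 3 counts per library in each, so no fold change is given. With no filter on low counts it did not pass (edgeR adjusted p = 0.209). Of 18 lymphocyte markers listed, 2 could be tested: Ptprc, which all leukocytes express, did not pass (16.4 and 14.9 CPM), and Cd4 fell from 2.18 to 1.23 CPM. Without ad-GFP replicate 1, Ptprc passed as lower (log2 fold change −0.25, edgeR adjusted p = 0.00548). Trac, a T cell receptor gene, had 34 reads in ad-GFP and 13 in ad-CRE, and Cd3d, Cd3e, Cd3g, Ncr1 and Nkg7 had 0 reads in all 8 libraries (these 6 are named after their values were seen). The list summed to 16.2 to 21.99 CPM in ad-GFP and 14.5 to 17.5 CPM in ad-CRE. Stat4 (ENSMUSG00000062939, chromosome 1, 51987148 to 52107189, plus strand) was not measurable here at this depth. Of its 50-base transcript windows, 21.7% occur in another gene, so the few reads may not all be its own.

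Among the kinases, Tyk2, the partner of the interferon and interleukin 12 receptors, had the largest relative rise. It was at 37.3, 36.7, 35.7 and 36.6 CPM with ad-GFP (replicates 1 to 4) and at 50.2, 49.3, 54.1 and 51.7 CPM with ad-CRE (same order), well separated. The fold change was 1.40 (log2 fold change 0.49, SE 0.046, edgeR adjusted p = 6.46e-11). Tyk2 (ENSMUSG00000032175, chromosome 9, 21104068 to 21131243, minus strand) overlaps the antisense gene 1700084C06Rik, and 7.52% of its 50-base transcript windows occur in other genes. It lies 484925 bases from Smarca4 on the same chromosome.

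Jak2, which serves the growth hormone and erythropoietin receptors, was at 106, 110, 113 and 118 CPM with ad-GFP (replicates 1 to 4) and at 152, 142, 148 and 160 CPM with ad-CRE (same order). It rose 1.347-fold (log2 fold change 0.43, SE 0.037, edgeR adjusted p = 1.06e-11) with no overlap between the groups. Jak2 (ENSMUSG00000024789) lies on chromosome 19, 29251828 to 29313080, plus strand, with no overlapping annotated gene. Jak1, the kinase shared by most of these receptors and the most abundant member, was at 184, 189, 192 and 182 CPM with ad-GFP (replicates 1 to 4) and at 227, 222, 219 and 231 CPM with ad-CRE (same order). It rose 1.20-fold (log2 fold change 0.27, SE 0.029, edgeR adjusted p = 1.03e-09), again with no overlap. Jak1 (ENSMUSG00000028530) lies on chromosome 4, 101152367 to 101265282, minus strand, and its span overlaps Raver2 on the opposite strand.

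The fitted rises of the kinases differed in size, that of Tyk2 being the largest and that of Jak1 the smallest. The ratio of Tyk2 to Jak1 counts went from 0.196 ± 0.00749 to 0.229 ± 0.0126 (SD, n = 4; exact permutation test, two-sided, adjusted p = 0.0357). This pair was chosen after the values were seen and sets the largest rise against the smallest, so its test adds no support. The ratio of Jak2 to Jak1 was 0.5999 ± 0.0348 and 0.669 ± 0.0238, and did not pass (exact permutation test, two-sided, p = 0.0571, adjusted p = 0.0571). The rises of the family were ordinary in size: the largest, that of Tyk2, exceeded the absolute log2 fold change of 64.6% of the genes tested, and that of Stat5b exceeded 33.8%, where the median over all genes was 0.32.

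**Figure D2:**
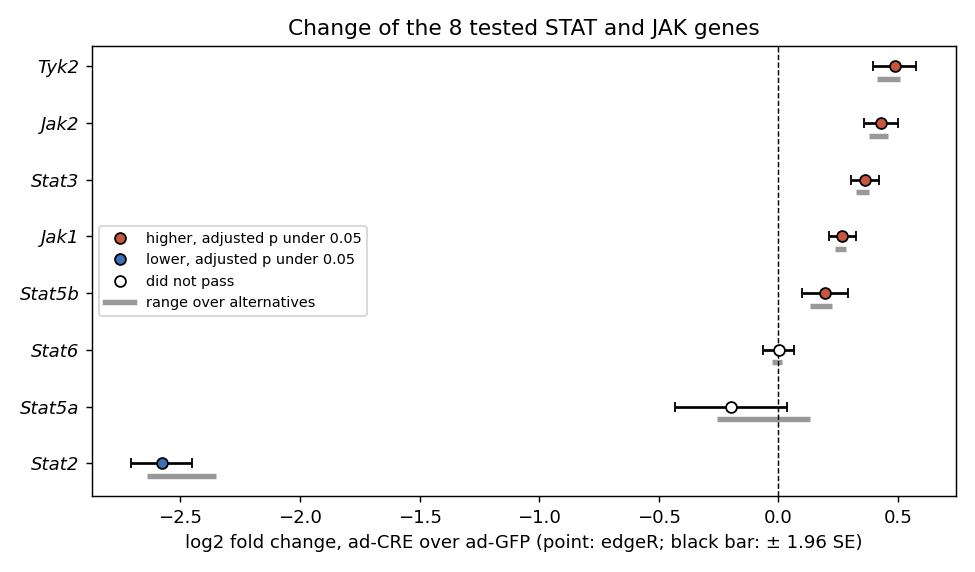
Log2 fold change of ad-CRE over ad-GFP (horizontal axis) for the 8 tested genes, from edgeR. Black bars are 95% intervals, grey bars the range over all alternative settings, and open points did not pass. Stat2 at −2.58 stands apart from the 5 rises of 0.20 to 0.49, and the grey bars of Stat5a and Stat6 cross 0.

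Levels were compared between genes on the FPKM scale, which accounts for gene length. In ad-GFP the order was Jak1 (38.4 ± 0.981 FPKM, SD, n = 4), Stat3 (29.4 ± 0.757), Stat2 (25.5 ± 2.63), Jak2 (25.3 ± 1.25), Stat6 (23.9 ± 0.149), Tyk2 (7.97 ± 0.191), Stat5b (6.53 ± 0.265), Stat5a (2.69 ± 0.503) and Stat4 (0.01 ± 0.0115). Of these neighbours, Stat3 and Stat2 (exact permutation test, adjusted p = 0.0914), Stat2 and Jak2 (exact permutation test, adjusted p = 0.971) and Jak2 and Stat6 (exact permutation test, adjusted p = 0.0914) did not pass in a test that sets the 4 values of each gene against each other as separate samples. Within a library, however, Stat3 was above Stat2 and Jak2 above Stat6 in 4 of 4 libraries, and Stat2 was above Jak2 in 1. In ad-CRE the order was Jak1 (45.4 ± 1.01 FPKM), Stat3 (37.0 ± 0.751), Jak2 (33.2 ± 1.66), Stat6 (23.5 ± 0.336), Tyk2 (10.9 ± 0.427), Stat5b (7.35 ± 0.178), Stat2 (4.19 ± 0.418), Stat5a (2.34 ± 0.353) and Stat4 (0.035 ± 0.0129), and each neighbour pair differed in all 4 libraries (exact permutation test, adjusted p = 0.0352 for each). Stat2 thus went from place 3 to place 7. The places depend on the gene length used. With counts per kilobase of annotated exons, Stat3, whose annotated exons total 9527 bases, took place 5 in ad-GFP and 4 in ad-CRE. On that scale Stat2 went from place 4 to place 7, and Stat5b stood above Tyk2 in ad-GFP.

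The makeup of the STAT transcripts shifted. Stat2 gave 31.4%, 27.2%, 28.2% and 28.9% of the summed FPKM of the 6 STAT genes with ad-GFP (replicates 1 to 4), and 6.23%, 4.91%, 5.69% and 5.64% with ad-CRE. The share of Stat3 went from 33.4% ± 0.614 to 49.7% ± 0.705 and that of Stat6 from 27.2% ± 1.16 to 31.6% ± 0.375 (SD, n = 4; exact permutation test, two-sided, adjusted p = 0.0367 for each over 9 shares). Shares of a sum move against each other, so the larger share of Stat6 came with a level that showed no detectable difference. Its share therefore followed the fall of the sum. Stat3 was already higher and the STAT sum lower without overlap, so the outcome for the Stat3 share was fixed in advance. The tests of these shares thus add no support beyond the levels of the genes. The sum over the STAT genes fell from 88.0 ± 3.61 to 74.5 ± 0.769 FPKM and that over the 3 kinases rose from 71.6 ± 1.43 to 89.6 ± 2.42 FPKM (SD, n = 4; exact permutation test, two-sided, p = 0.0286 for each). Each of the 3 kinases was already higher without overlap, so the outcome for their sum was fixed in advance.

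**Figure D3:**
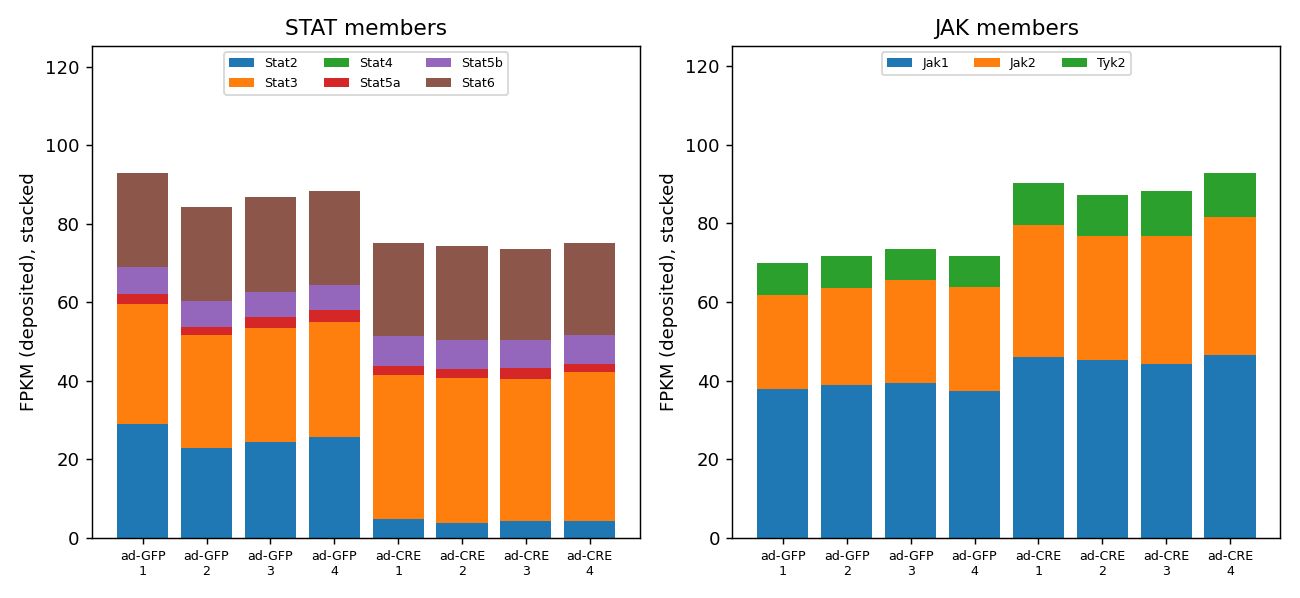
Deposited FPKM stacked by gene (vertical axes, starting at 0) in each of the 8 libraries, for the 6 STAT genes and the 3 kinases. The Stat2 segment shrinks from 22.9 to 29.1 FPKM in ad-GFP to 3.65 to 4.67 FPKM in ad-CRE, while the kinase bars are taller in each ad-CRE library.

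The whole series sets the frame for these values. Totals ran from 15998257 to 22297598 counts per library. Suv39h1 was at 37.2 to 44.1 CPM in ad-GFP and 31.6 to 33.4 CPM in ad-CRE (log2 fold change −0.35, edgeR adjusted p = 8.65e-07), and Smarca4, which encodes the chromatin remodelling ATPase BRG1 and is known as a STAT coactivator, at 276 to 300 and 29.9 to 37.3 CPM (log2 fold change −3.07, edgeR adjusted p = 3.82e-31). The gene given as the target thus fell far less than Smarca4, which the labels do not name, so which gene the ad-CRE libraries were targeted at is uncertain, and every ad-CRE value is that of libraries labelled so. Of the fibroblast markers, 9 of 11 tested fell and 2 rose, against 36.3% lower and 36.8% higher among all genes tested. Only 1 rose with DESeq2, on either log2 FPKM scale, with at least 5 CPM in 4 libraries, or without replicate 3 of either group. Fn1, the fibronectin gene, rose from 19706 to 25270 CPM and outweighs the list. Without it, the other 11 listed summed to 1849 to 1948 CPM in ad-GFP and 789 to 849 CPM in ad-CRE. Most of that sum was Vim, which fell from 1614 to 693 CPM. Of the tubular epithelial markers 8 of 12 rose and 2 fell, beside the same shares of all genes. Their summed levels were 2354 to 2602 CPM in ad-GFP and 5046 to 5216 CPM in ad-CRE, so epithelial transcripts were present in a line labelled as fibroblasts. The largest part of that sum was Krt8, which rose from 745 to 1983 CPM. The 2 that fell, named after their values were seen, were Cdh16 (218 to 138 CPM) and Lrp2 (81.5 to 55.5 CPM). Macrophage markers fell in 12 of 13 genes and endothelial markers in 9 of 9, against 36.3% lower among all genes tested. The macrophage markers summed to 361 to 406 CPM in ad-GFP and 254 to 276 CPM in ad-CRE. The endothelial markers summed to 191 to 207 CPM in ad-GFP and 84.9 to 93.9 CPM in ad-CRE. The part of these markers in the changes of the STAT and JAK genes was not tested, and in bulk RNA fewer cells of a type and less RNA per cell cannot be told apart.

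Around the 9 genes, the pathway was followed from ligands to targets. Each list is set beside the 73.1% of all genes tested that were called, 36.8% higher and 36.3% lower. Of 31 cytokine ligand genes listed, 13 were tested. Of those, 6 rose, 4 fell and 3 did not pass, so that 76.9% were called, near the share of all genes. The median was 0.35 on the log2 scale, against 3.87e-05 over all genes tested. Ligands of the gp130 family moved apart. Lif and Clcf1, the most abundant ligands listed by the mean over all 8 libraries, rose from 39.8 to 72.5 CPM (log2 fold change 0.86) and from 64.8 to 137 CPM (1.08), whereas Il11 fell from 53.0 to 11.2 CPM (−2.26). Il23a, a subunit of interleukin 23, rose from 0.689 to 2.99 CPM (2.12). The interferon genes listed, Ifnb1, Ifng, Ifnk and Ifne, named after their values were seen, had too few reads to be tested.

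Of 39 receptor genes listed, 29 were tested, and their calls were 11 up, 11 down and 7 not passed (median 0.06). The share called, 75.9%, is near the 73.1% of all genes. Il6st, encoding the gp130 chain upstream of STAT3, rose from 169 to 300 CPM (log2 fold change 0.83, SE 0.027, edgeR adjusted p = 3.92e-22). The interferon receptor chains did not move together. Ifnar1 rose by 0.49 on the log2 scale (87.8 to 123 CPM) and Ifnlr1, for the lambda interferons, by 1.42 (10.5 to 28.0 CPM), while Ifngr1 did not pass (0.03, edgeR adjusted p = 0.456). Of the other chains, named after their values were seen, Ifnar2 did not pass (0.09, edgeR adjusted p = 0.121), Ifngr2 rose (0.24, edgeR adjusted p = 3.35e-07) and Il10rb, which pairs with Ifnlr1, fell from 40.9 to 37.6 CPM (−0.12, edgeR adjusted p = 0.0233). Il5ra fell from 8.13 to 2.24 CPM (−1.86).

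Of the 10 partners and coactivators, 7 fell and 3 rose (median −0.25), against 36.3% lower and 36.8% higher among all genes. Nmi, which encodes a STAT-interacting protein that interferon induces, fell from 20.5 to 8.30 CPM (log2 fold change −1.31), beside Irf9 and Smarca4. Kpna1, encoding an importin that carries STAT proteins into the nucleus, rose by 0.37, and the chaperone genes Ptges3 and Hsp90ab1 had −0.35 and −0.04. Hsp90ab1 passed narrowly (edgeR adjusted p = 0.0445) and did not pass with no filter on low counts (edgeR adjusted p = 0.263), with the replicate number as a block (0.0516) or without any 1 of 6 of the libraries, ad-GFP replicates 2 and 4 and the 4 of ad-CRE (0.0515 to 0.121).

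Of the 19 negative regulators, 9 rose and 5 fell, 5 not passing (median 0.03). The share called, 73.7%, is that of all genes to within 1 percentage point. Socs3, a feedback inhibitor of gp130 signalling, rose from 14.0 to 33.6 CPM (log2 fold change 1.26, SE 0.061, edgeR adjusted p = 1.02e-17), Cbl by 0.54 and the phosphatase gene Ptpn1 by 0.36. Usp18, an inhibitor of the type I interferon receptor and itself induced by interferon, fell from 85.5 to 2.32 CPM (−5.20). The count of falls in this list was 8 with scaling to library totals alone or with the stricter filter, and 3 without ad-GFP replicate 4, ad-CRE replicate 2 or ad-CRE replicate 3.

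Of 32 interferon-stimulated genes, 31 fell and 0 rose (median −3.07), against 36.3% lower among all genes, with Irf1 the gene that did not pass (0.06). Irf1 was singled out after its values were seen. Bst2 went from 151 to 18.3 CPM and Irf7 from 132 to 2.17 CPM, while the abundant members Parp14 and Eif2ak2, the latter a kinase activated by double-stranded RNA, had −1.92 and −1.78. An ISRE core stood in the upstream windows of 9 of the 24 genes of this list that had one (37.5%), against 8.18% of 27025 genes with a window, and in 27.3% of the 11 STAT6 targets with one. The ligand, receptor, negative regulator, STAT3 and STAT5 lists held the ISRE core in 9.09% to 9.52%, and the partners in 0%. The GAS core stood in 25% of these 24 interferon-stimulated genes, 23.8% of 21 STAT3 targets, 27.3% of 11 STAT5 targets and 18.2% of the STAT6 targets, against 8.13% of all genes. It stood in 15.6% of 32 receptors, 9.09% of 22 ligands, 9.09% of 11 negative regulators and 0% of 8 partners. Each of these list shares rests on at most 9 genes with the motif.

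Of 23 STAT3 targets tested, 11 rose and 7 fell, 5 not passing (median 0.06). The shares called in the STAT3, STAT5 and STAT6 lists, 78.3%, 78.6% and 72.7%, are near the 73.1% of all genes. Ccnd1, the G1 cyclin gene, rose from 400 to 612 CPM (log2 fold change 0.61) and Junb from 117 to 177 CPM (0.59), beside Socs3, which is also on this list. Mmp9, the gelatinase gene, fell from 105 to 37.8 CPM (−1.47) and Hif1a by 0.33 on the log2 scale. Of 14 STAT5 targets, 6 rose and 5 fell, 3 not passing (median 0.04). Ccnd2, a further G1 cyclin gene, rose from 162 to 450 CPM (1.47), and the kinase gene Pim1 by 0.72, which the STAT3 list holds too. Of 11 STAT6 targets, 5 rose and 3 fell, 3 not passing (median 0.22). Cdh1, encoding E-cadherin and also a marker of tubular epithelium here, rose from 204 to 484 CPM (1.25) and Tgm2, the tissue transglutaminase gene, from 389 to 455 CPM (0.22), while Il4ra, the interleukin 4 receptor gene, fell by 0.37 and Pparg by 2.43 on the log2 scale. The falls in the STAT6 list numbered 5 with scaling by total counts only and without ad-CRE replicate 1. The STAT3, STAT5 and STAT6 lists share members with one another and with the other lists, in 7, 8 and 5 genes.

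**Figure D4:**
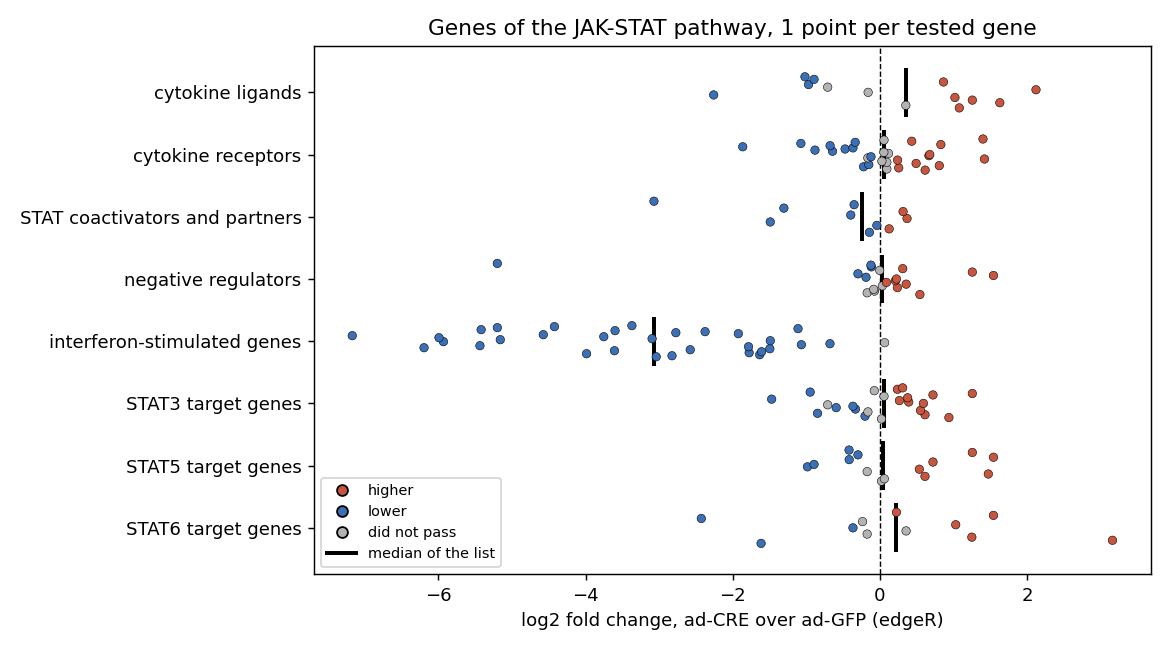
Log2 fold change of ad-CRE over ad-GFP (horizontal axis, edgeR) for each tested gene of the 8 pathway lists, 1 point per gene. Red points passed as higher, blue as lower and grey did not pass, and the black tick is the median of the list. The interferon-stimulated genes, with a median of −3.07, lie to the left, and the medians of the other 7 lists lie between −0.25 and 0.35.

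The authors' deposited table gave the same 6 members an FDR under 0.05. For Stat2 the authors' deposited table lists a log2 fold change of −2.61 and an FDR of 3.26e-127, from mean FPKM of 25.5 and 4.19. For Stat4 the authors' deposited table lists a log2 fold change of 1.81 with an FDR of 0.316, which rests on the few reads given above.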

How the data were processed

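RNA of 8 libraries was prepared with an RNeasy kit and a SMARTer mRNA-seq kit, per the labels' protocols. The builds GRCm38 and mm10 are named in the submitters' processing notes. No source used here gives the authors' aligner, counter, annotation, strand setting or test. The authors deposited 1 table with read counts and FPKM values per library and, per the file headers, the authors' mean FPKM, log2 fold change, p-value and FDR.

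The counts went into edgeR 4.0.16 (R 4.3.3) with filterByExpr, TMM scaling and a quasi-likelihood test of group alone, and Benjamini-Hochberg adjustment covered 13702 genes. The SE is the absolute log2 fold change divided by the square root of F, and 95% intervals are normal intervals from that SE. Levels per length used the deposited FPKM. Shares, sums, ratios and neighbours in level were compared by exact permutation tests, and the 5 ratios were chosen after the values were seen. No library was a copy of another: chi-square divided by degrees of freedom was 1.71 to 3.24 between replicates.

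The members, the gene lists (from general knowledge), the tests and the rule for named genes were chosen with earlier results of these data known. Named are the 9 members, Suv39h1, Smarca4, from each list genes among the 4 with the smallest p and the 2 most abundant, and for members called with an absolute log2 fold change of at least 0.5 the 2 genes nearest in pattern (mean log2 CPM of at least 2). Some genes that this rule takes are given only in counts. Alternatives were DESeq2 1.42.0, limma 3.58.1 (voom, and limma-trend with FPKM pseudocounts of 1 and 0.1), other scalings and filters, a replicate block, summed Stat5 paralogs and leaving out each library. On simulated counts of 13603 genes, 50 genes were given each log2 change of 0.25, 0.5, 1 and 2. Of these, edgeR found 60%, 86%, 100% and 100%. In the data 73.1% of genes were called, far more than were changed in the simulation. The adjustment for multiple testing was therefore stricter there, and these shares need not hold for the data. Coordinates are from GENCODE M21 (GRCm38), which holds 22219 of the 22274 gene IDs. Upstream sequences are from RefSeq tables (GRCm38.p6) and matched 9 of 9 members.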

Additional observations from a re-analysis of the deposited data

Results flagged for a closer look

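The Stat5a level of ad-CRE replicate 4, 4.95 CPM, lay far below the other 3 libraries of its group, which were between 6.29 and 6.43 CPM. The gap was 0.903 of the range of the group, above Dixon's 95% critical value for 4 samples. It was the only such value among 36 groups of 4 values examined (9 genes, 2 groups, CPM and FPKM), where chance gives about 1 in 20. Without that library the Stat5a log2 fold change was −0.12 (edgeR adjusted p = 0.369).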

How the results depend on the processing

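The counts of 5 members higher and 1 lower in ad-CRE were the same in every alternative run, and Stat2 lay between −2.64 and −2.35 (log2), the latter on the log2(FPKM + 1) scale. The Stat6 log2 fold change, which passed in none, turned below 0 with DESeq2 size factors (−0.00315), total counts only (−0.0255), at least 5 CPM in 4 libraries (−0.0228), log2(FPKM + 1) (−0.0242), log2(FPKM + 0.1) (−0.0251) and some libraries left out (range over the 8 fits −0.00251 to 0.0127). The Ifngr1 log2 fold change, which did not pass in the test reported, turned to −0.00095 with total counts only and −0.0032 with either FPKM pseudocount. The Stat5a log2 fold change turned to 0.13 when summed with Stat5b, which is by construction mostly Stat5b. The order by level moved in 6 places in ad-GFP and 3 in ad-CRE with counts per kilobase of annotated exons. With at least 5 CPM in 4 libraries, which tests fewer genes, 2 ligands rose and 2 fell, 7 receptors fell, 8 negative regulators fell and 2 STAT6 targets rose. With total counts only, 8 negative regulators and 5 STAT6 targets fell. With 1 library left out, 3 to 6 negative regulators and 3 to 5 STAT6 targets fell. Where no construction shows it, the cause was not tested. The replicate block gave Stat2 −2.58 and changed no call of a member. Same-numbered libraries did not deviate together (correlations −0.065 to 0.082 over 8182 genes), while differently numbered ones ran from −0.27 to 0.19. With so few libraries this cannot show whether the numbers pair them. Stat4 had 2 reads in ad-GFP and 8 in ad-CRE, too few to test.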
